A study of Canis lupus familiaris with 12 samples.

Results

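The RAB GTPases are the largest branch of the RAS superfamily of small GTPases, and their mRNA levels were compared in MDCKII cells, an epithelial line from dog kidney, with and without the junctional proteins cingulin (CGN) and paracingulin (CGNL1). The members were the genes of the deposited table whose symbol is RAB followed by a number and at most 1 further letter. This rule uses names and no measured value, and it leaves out effectors such as the RAB11FIP genes. It found 52 of the 13672 listed genes. Of these, 49 had more than 1 CPM (reads scaled to a library of 1000000) in at least 3 libraries and were tested, and RAB3B, RAB3C and RAB26 were not. Among the 49, RAB36 and RAB38 were above 1 CPM in KO libraries and in 0 of 3 WT libraries, so they passed the filter through libraries in which they were high. The other 47 members were above 1 CPM in all 12 libraries.

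A RAB protein is a molecular switch that recruits effectors to a membrane when bound to GTP and is extracted from it when bound to GDP. Exchange factors (GEFs) load it with GTP, GTPase-activating proteins (GAPs) switch it off, and GDI and escort proteins carry its prenylated form through the cytosol. Each RAB marks particular compartments. In polarized epithelial cells the family directs cargo to the apical or basolateral surface and to the junctions that separate them, with RAB11, RAB25 and RAB17 acting in recycling and apical transport, RAB8 and RAB10 in delivery to the surface, and RAB13 in delivery to tight junctions.

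The 4 genotypes were WT, CGN-KO (line 1G8), CGNL1-KO (line 22) and CGN/CGNL1 double-KO (line 21D3), untreated, with 3 libraries each. Each KO genotype is 1 line made by CRISPR/Cas9 editing, so the loss of the gene and other properties of that line cannot be told apart. Nothing in the sources says that libraries came from separate cultures, so the p-values measure the spread between libraries, which may be technical. One double-KO column bears no replicate number and is called unnumbered here, whereas the other double-KO columns are numbered 2 and 3. Reads recovered from the CPM of the listed genes summed to between 16837532 and 30086076 per library, the highest in CGN-KO replicate 1. CGN was at 199 to 233 CPM in WT, 47.0 to 56.5 in CGN-KO, 198 to 213 in CGNL1-KO and 39.7 to 45.3 in double-KO libraries. CGNL1 was at 7.74 to 12.3 CPM in WT, 5.04 to 6.92 in CGN-KO, 1.76 to 3.02 in CGNL1-KO and 1.11 to 1.76 in double-KO libraries. All 6 epithelial markers (CDH1, EPCAM, KRT8, KRT18, OCLN, TJP1) were listed, the lowest being OCLN at 64.8 to 82.0 CPM. Among kidney markers PAX8 was at 84.3 to 115 CPM, PAX2 at 18.5 to 33.4 and CDH16 at 0.828 to 5.14. Of 9 markers of leukocytes, endothelium and fibroblasts, 3 were listed: CD68 and VWF reached at most 1.34 CPM, and PDGFRA was at 2.705 to 11.1 CPM.

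Of the 52 members, 39 exceeded 10 CPM in all 12 libraries of the study and 10 exceeded 100 CPM. The median WT level of the members was 41.7 CPM, and that of all listed genes was 27.3 CPM. CPM are not corrected for transcript length, so they do not rank the members by abundance. The summed level of the family was 3376 ± 25.9 CPM (SD, n = 3) in WT, 3335 ± 68.1 for CGN-KO, 3427 ± 50.04 for CGNL1-KO and 3339 ± 57.2 for double-KO cells, and these groups overlapped. With CPM from library totals alone the sum was 3361 ± 72.5 in CGNL1-KO and 3387 ± 34.1 in WT cells, so the sign of that difference turned. The median coefficient of variation of a member between libraries of 1 genotype was between 4.39% and 6.49%. In bulk RNA a lower level can mean fewer cells that express a gene or less RNA per cell, and these cannot be told apart.

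RAB genes changed by modest amounts and in both directions. RAB32 and RAB13 rose and RAB27A fell in all 3 KO lines, and the other calls were made in 1 or 2 lines. A call here is a Benjamini-Hochberg adjusted p below 0.05 in limma, and a log2 change is the KO mean minus the WT mean of log2(CPM + 1), which understates changes of genes with few reads. In CGN-KO cells 11 of 49 members (22.4%) were called, 6 higher and 5 lower, beside 19.0% of all 12650 genes tested (11.2% higher, 7.87% lower). Without WT replicate 2 this count was 6. In CGNL1-KO cells 6 members (12.2%) were called, 4 higher and 2 lower, beside 10.3% of all genes (6.81% higher, 3.49% lower). In double-KO cells 16 members (32.7%) were called, 7 higher and 9 lower, beside 26.3% of all genes (14.8% higher, 11.5% lower). Of the 47 members above 1 CPM in all 12 libraries, 19.1%, 12.8% and 31.9% were called in these lines, beside 19.1%, 10.4% and 26.8% of the 11733 genes that meet the same condition. The members' shares were thus near those of all genes.

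Called members that had also changed at least 2-fold on the log2(CPM + 1) scale numbered 0 in each line. On that scale the shares of all genes were 1.31% for CGN-KO, 0.617% for CGNL1-KO and 1.41% for double-KO cells. The count of 0 depends on the added 1 for RAB36 and RAB38, whose mean CPM rose more than 2-fold where they were called. Mean RAB38 was 0.503 CPM in WT, 1.19 in CGN-KO and 1.14 in double-KO cells. RAB36 was at 0.295 to 0.573 CPM in WT and 0.945 to 1.12 in CGN-KO libraries. At an unadjusted p below 0.05 there were 19, 12 and 22 of the 49 members with no condition on fold, beside 32.5%, 22.6% and 37.6% of all genes. The median log2 change of the members was −0.05 for CGN-KO, 0.03 for CGNL1-KO and −0.07 for double-KO cells, and that of all genes was −0.0039, −0.0031 and −0.00036. In all, 20 members were called in at least 1 line and 0 in opposite directions, and 29 were called in none, with log2 changes between −0.31 and 0.28. The 20 include RAB36 and RAB38. Shares of all genes with these patterns were not counted, so the counts are not read as particular to the family. Higher calls in all 3 lines numbered 2, beside 3.96% of all genes, and lower calls in all 3 lines numbered 1, beside 1.66%. The 3 comparisons share the WT libraries, so a call in several lines is not independent. The F test over the 4 genotypes called 20 members (40.8%), beside 29.9% of all genes. This set differs from the 20 members above: it holds RAB24 (adjusted p = 0.0485) and not RAB38 (adjusted p = 0.0562). RAB36, tested because of its KO values, is in it.

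**Figure D1:**
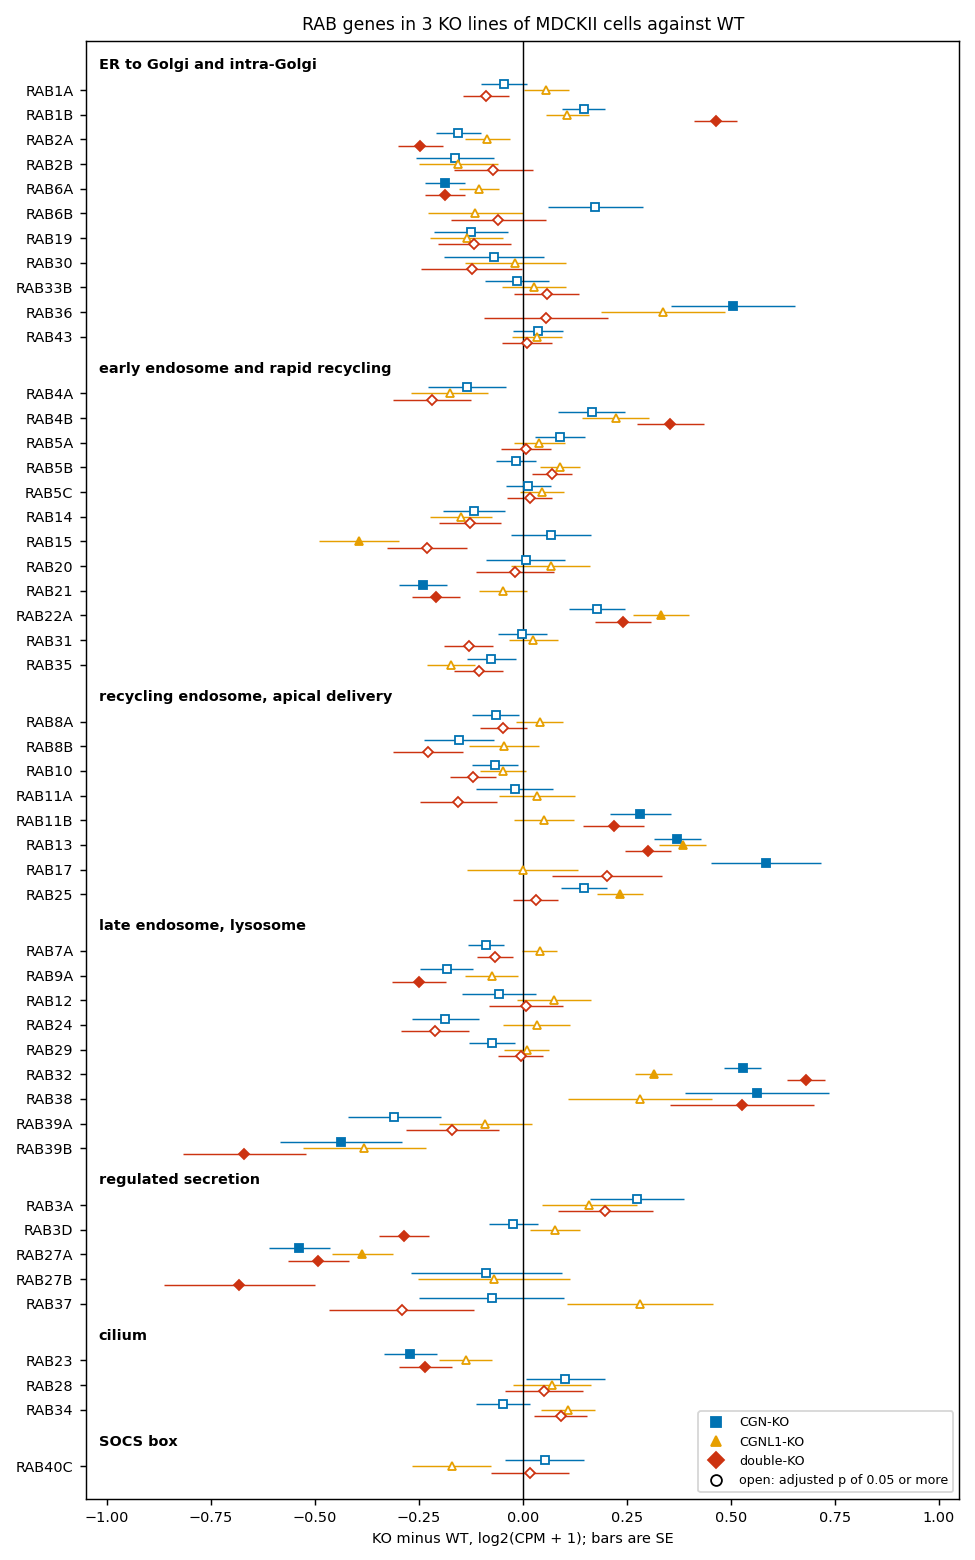
Log2 change of each of the 49 tested RAB genes in CGN-KO (squares), CGNL1-KO (triangles) and double-KO cells (diamonds) against WT, as the difference of mean log2(CPM + 1) with its SE on the horizontal axis, grouped by the compartment in which the RAB acts. Filled symbols are calls at an adjusted p below 0.05: RAB32 and RAB13 lie to the right and RAB27A to the left in all 3 lines, whereas RAB1B, RAB3D and RAB27B are filled in double-KO cells alone.

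The recycling endosome, apical and junctional group has 8 members. Rises were called for 3 of them (37.5%) with CGN-KO, 2 (25%) with CGNL1-KO and 2 (25%) with double-KO cells, beside 11.2%, 6.81% and 14.8% of all genes called higher, and falls for 0 of them, beside 7.87%, 3.49% and 11.5%. Counts in groups of this size are given as a description. RAB13, which acts in the recycling of occludin and the delivery of proteins to tight junctions, was at 43.5, 42.4 and 40.7 CPM in the WT libraries. It was at 56.9, 53.4 and 54.3 CPM in CGN-KO, 57.0, 54.3 and 54.8 in CGNL1-KO libraries, and 54.0 (unnumbered), 49.9 and 52.8 in double-KO libraries. The 9 KO libraries were thus above the 3 WT libraries. Libraries of CGN-KO overlapped those of CGNL1-KO and of double-KO cells. The double-KO libraries lay below those of CGNL1-KO, a difference that was not called. The log2 changes of RAB13 were 0.37 (SE 0.06, adjusted p = 0.000193), 0.38 (SE 0.06, adjusted p = 0.000256) and 0.30 (SE 0.06, adjusted p = 0.000885).

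RAB25 and RAB11B, both of the RAB11 subfamily of recycling endosomes, were called in different lines. RAB25, an epithelial member, was at 84.1, 81.4 and 81.1 CPM in WT, 96.0, 86.4 and 91.3 in CGN-KO, 99.8, 94.1 and 97.0 in CGNL1-KO libraries, and 82.2, 81.5 and 88.6 in double-KO libraries. It rose by 0.23 in CGNL1-KO cells (SE 0.05, adjusted p = 0.0109). Its log2 change was 0.15 in CGN-KO (adjusted p = 0.0742) and 0.03 in double-KO cells (95% interval −0.09 to 0.15), where the libraries overlapped WT. RAB11B was at 59.5, 59.4 and 69.1 CPM in WT, 78.9, 74.9 and 74.9 in CGN-KO, 72.2, 59.5 and 63.4 in CGNL1-KO libraries, and 71.5, 72.5 and 74.7 in double-KO libraries. It rose by 0.28 in CGN-KO (SE 0.07, adjusted p = 0.0117) and by 0.22 in double-KO cells (SE 0.07, adjusted p = 0.0354). Without WT replicate 2 the CGN-KO call was lost (0.25, adjusted p = 0.0630). The double-KO call was lost without 5 of the 6 libraries taken singly (all but WT replicate 3), with log2 changes from 0.18 and adjusted p up to 0.133. Its paralog RAB11A, the general recycling RAB, was at 122 to 163 CPM in the 12 libraries, with log2 changes of −0.02, 0.03 and −0.15 and an interval in double-KO cells from −0.35 to 0.04. The double-KO libraries of RAB11A (122 to 130 CPM) lay below WT (132 to 154 CPM), a difference that was not called (adjusted p = 0.237).

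RAB17, an epithelial RAB of apical recycling and transcytosis, had few reads (41 to 151 per library). It was at 2.42, 2.26 and 3.15 CPM in WT, 4.98, 4.15 and 4.07 in CGN-KO, 2.96, 2.48 and 2.35 in CGNL1-KO libraries, and 3.44, 3.41 and 2.60 in double-KO libraries. CGN-KO libraries lay above the other 9, and RAB17 rose by 0.58 in this line (SE 0.13, adjusted p = 0.00532). In double-KO cells, which lack CGN too, its log2 change was 0.20 (95% interval −0.08 to 0.48) and the libraries overlapped WT. The 3 double-KO libraries lay below those of CGN-KO, a difference that was not called.

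The other RABs of surface delivery were called in no line. RAB8A, which acts in apical delivery and ciliogenesis, was at 44.2 to 50.5 CPM over the 12 libraries, with intervals of its log2 change from −0.19 to 0.16 in the 3 lines. RAB8B was at 51.8 to 68.1 CPM, and its double-KO libraries lay below WT by 0.23 (adjusted p = 0.0571). RAB10, of basolateral delivery, was at 132 to 157 CPM with log2 changes of −0.07, −0.05 and −0.12. RAB14, which links endosomes and the Golgi, was at 72.3 to 95.3 CPM with log2 changes from −0.15 to −0.12. RAB35, of rapid recycling, was at 60.3 to 75.5 CPM, and its CGNL1-KO libraries lay below WT by 0.17 (adjusted p = 0.0779).

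Among the 9 members of the late endosome, lysosome, lysosome-related organelle and autophagy group, RAB32 rose in all 3 lines. RAB32 acts in cargo delivery to lysosome-related organelles such as melanosomes. It was at 97.4, 97.7 and 100.4 CPM in WT, 143, 142 and 142 in CGN-KO, 127, 121 and 121 in CGNL1-KO libraries, and 157 (unnumbered), 161 and 158 in double-KO libraries. The 4 genotypes did not overlap, in the order WT, CGNL1-KO, CGN-KO, double-KO. The log2 changes against WT were 0.53 (SE 0.04, adjusted p = 5.17e-07) in CGN-KO, 0.68 (SE 0.04, adjusted p = 2.41e-08) in double-KO and 0.31 (SE 0.04, adjusted p = 0.000211) in CGNL1-KO cells. These calls were kept without each library in turn and under the other analyses tried.

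RAB38, the paralog of RAB32 in melanosome transport, had 3 to 31 reads per library. It was at 0.530, 0.166 and 0.812 CPM in WT, 1.02, 1.43 and 1.12 in CGN-KO, 1.10, 0.632 and 0.696 in CGNL1-KO libraries, and 1.11, 1.42 and 0.893 in double-KO libraries. It was called in CGN-KO (0.56, adjusted p = 0.0314) and double-KO cells (0.53, adjusted p = 0.0331). As RAB38 was tested because of its KO values, these calls are a description, and each was lost without WT replicate 1, without WT replicate 2 and without 2 of the KO libraries taken singly (adjusted p up to 0.162). RAB36, a Golgi-associated RAB with 5 to 34 reads, passed the filter in the same way. It was at 0.295, 0.442 and 0.573 CPM in WT, 1.12, 1.037 and 0.945 in CGN-KO, 1.22, 0.677 and 0.589 in CGNL1-KO libraries, and 0.484, 0.455 and 0.528 in double-KO libraries. Its call in CGN-KO cells (0.51, adjusted p = 0.0254) was lost without WT replicate 1 or 2 or CGN-KO replicate 1 or 2, with adjusted p up to 0.0897.

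RAB39B and RAB9A of the same group fell. RAB39B, an X-linked RAB of the Golgi and endosomes, was at 19.0, 16.9 and 15.3 CPM in WT, 14.4, 10.9 and 11.8 in CGN-KO, 16.7, 9.66 and 13.1 in CGNL1-KO libraries, and 10.5, 10.9 and 9.62 in double-KO libraries. In double-KO cells it fell by 0.67 (SE 0.15, adjusted p = 0.00307), and this call was kept without each library in turn. Its fall by 0.44 in CGN-KO cells (adjusted p = 0.0482) was lost without any of the libraries except CGN-KO replicate 1, with CPM from library totals and with edgeR (adjusted p up to 0.165). RAB9A, of transport from late endosomes to the trans-Golgi network, was at 71.3 to 76.5 CPM in WT and 58.2 to 67.1 in double-KO libraries, a fall by 0.25 (adjusted p = 0.00891) that was lost without double-KO replicate 3 (adjusted p = 0.0549). RAB7A, the central RAB of late endosomes and lysosomes, was at 223 to 249.8 CPM in the 12 libraries, and its log2 changes of −0.09, 0.04 and −0.07 were not called. RAB12, RAB24, RAB29 and RAB39A were not called either, with log2 changes from −0.31 to 0.08.

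The regulated secretion group has 8 members, 5 of them tested. Falls were called for 1 (20%) with CGN-KO, 1 (20%) with CGNL1-KO and 3 (60%) with double-KO cells, beside 7.87%, 3.49% and 11.5% of all genes called lower, and rises for 0, beside 11.2%, 6.81% and 14.8%. RAB27A, which docks secretory vesicles and lysosome-related organelles at the plasma membrane, was at 59.3, 60.8 and 60.7 CPM in WT. It was at 41.4, 38.0 and 44.5 CPM in CGN-KO, 46.4, 44.5 and 46.8 in CGNL1-KO libraries, and 47.7 (unnumbered), 39.5 and 41.0 in double-KO libraries. The 9 KO libraries lay below the WT libraries. RAB27A fell by 0.54 in CGN-KO (SE 0.07, adjusted p = 7.03e-05), by 0.39 in CGNL1-KO (SE 0.07, adjusted p = 0.00236) and by 0.49 in double-KO cells (SE 0.07, adjusted p = 0.000126), and these calls were kept without each library in turn.

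Its paralog RAB27B was called in double-KO cells alone. RAB27B was at 9.90, 8.22 and 7.36 CPM in WT, 11.01, 6.67 and 6.61 in CGN-KO, 10.2, 6.18 and 8.03 in CGNL1-KO libraries, and 5.13, 5.52 and 4.10 in double-KO libraries. The double-KO libraries lay below the other 9, and the fall against WT was 0.68 (SE 0.18, adjusted p = 0.0112). Replicate 1 was the highest library for RAB27B in WT and in both single-KO lines, as for 10 of the 49 members (20.4%) and 15.6% of all genes tested, and the part of this in the result was not tested. Without WT replicate 1 the fall was 0.58 (adjusted p = 0.0543), and without double-KO replicate 3 it was 0.58 (adjusted p = 0.0650).

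RAB3D, a RAB of secretory granules, was at 153, 141 and 154 CPM in WT, 152, 139 and 150.0 in CGN-KO, 163, 151 and 158 in CGNL1-KO libraries, and 127, 127 and 113 in double-KO libraries. The double-KO libraries lay below the other 9, with a fall by 0.29 against WT (SE 0.06, adjusted p = 0.00217). RAB3A and RAB37, of synaptic and granule exocytosis, were not called against WT, with log2 changes from −0.29 to 0.28. The summed level of the group was 222 to 236 CPM in WT, 198 to 219 in CGN-KO, 216 to 238 in CGNL1-KO and 173 to 192 in double-KO libraries, which lay below the rest. Most of this sum came from RAB3D and RAB27A, so it largely repeats their falls. Their means were 149 and 60.3 of 231 CPM in WT and 122 and 42.7 of 183 CPM in double-KO cells. RAB3B, RAB3C and RAB26 were at 0 to 1.39 CPM. RAB26 had 0 reads in WT replicate 2, which allows up to 0.166 CPM by counting error alone.

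**Figure D2:**
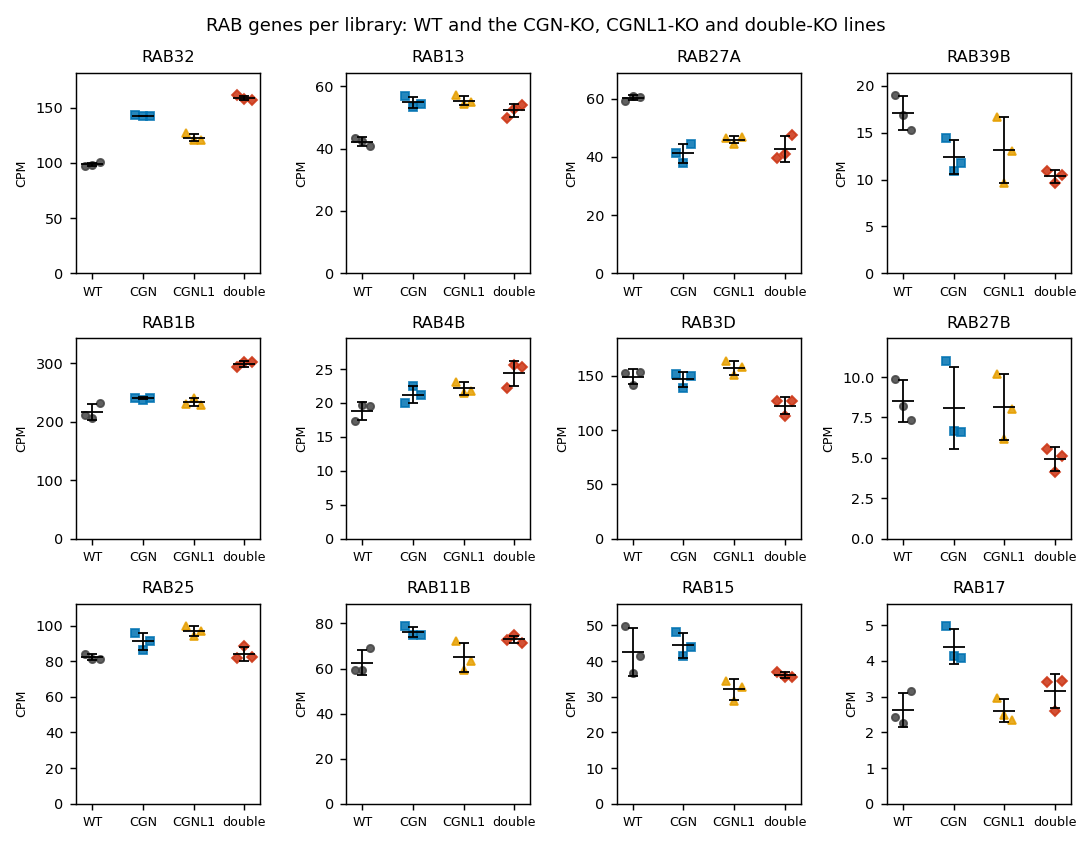
CPM of 12 RAB genes in the 3 libraries each of WT (circles), CGN-KO (squares), CGNL1-KO (triangles) and double-KO cells (diamonds), with horizontal bars for the mean and error bars for the SD and each vertical axis starting at 0. RAB32, RAB13 and RAB27A differ from WT in all 3 KO lines, RAB1B, RAB3D and RAB27B stand apart in double-KO cells, and RAB17 stands apart in CGN-KO cells.

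In the ER and Golgi group of 11 members there were 2 calls (18.2%) in CGN-KO, 0 in CGNL1-KO (limma, with 2 at an unadjusted p below 0.05) and 3 (27.3%) in double-KO cells, beside 19.0%, 10.3% and 26.3% of all genes. One of the calls in CGN-KO was RAB36, which was tested because of its KO values. RAB1B, which acts in ER to Golgi transport, was at 211, 207 and 232 CPM in WT, 241, 238 and 241 in CGN-KO, 230.0, 241 and 229 in CGNL1-KO libraries, and 302, 293 and 302 in double-KO libraries. Double-KO libraries lay above the other 9, with a rise by 0.46 (SE 0.05, adjusted p = 6.43e-06). Its paralog RAB1A was at 134 to 159.8 CPM with log2 changes of −0.05, 0.06 and −0.09, none of them called. RAB2A, also of ER to Golgi transport, was at 158 to 163 CPM in WT and 131 to 141 in double-KO libraries, a fall by 0.25 (SE 0.05, adjusted p = 0.00286). RAB6A, of Golgi exit and retrograde transport, was at 167 to 171 CPM in WT and fell by 0.19 in both CGN-KO (144 to 154 CPM, adjusted p = 0.0120) and double-KO cells (145 to 155 CPM, adjusted p = 0.00915). The former was lost without WT replicate 2 (adjusted p = 0.0506). RAB2B, RAB6B, RAB19, RAB30, RAB33B and RAB43 were called in none of the 3 lines, with log2 changes from −0.16 to 0.17.

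The early endosome and rapid recycling group of 12 members had 1 call (8.33%) for CGN-KO, 2 (16.7%) for CGNL1-KO and 3 (25%) for double-KO cells, beside 19.0%, 10.3% and 26.3% of all genes. RAB22A, of early endosome sorting, was at 20.51, 20.53 and 22.4 CPM in WT, 23.7, 25.3 and 23.2 in CGN-KO, 26.7, 26.0 and 28.0 in CGNL1-KO libraries, and 25.3, 24.7 and 25.4 in double-KO libraries. The 9 KO libraries lay above WT. It rose by 0.33 in CGNL1-KO (SE 0.07, adjusted p = 0.00387) and by 0.24 in double-KO cells (adjusted p = 0.0142), the latter lost without WT replicate 2 (adjusted p = 0.0558), and its log2 change in CGN-KO cells was 0.18 (adjusted p = 0.0760). RAB4B, of rapid recycling, was at 17.3, 19.7 and 19.5 CPM in WT and 25.2, 22.2 and 25.7 in double-KO libraries, a rise by 0.35 (SE 0.08, adjusted p = 0.00372). Its paralog RAB4A was not called, with log2 changes of −0.13, −0.18 and −0.22.

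RAB15, which acts in receptor recycling from early endosomes, was at 49.8, 36.6 and 41.5 CPM in WT, 48.2, 41.3 and 43.9 in CGN-KO, 34.5, 28.8 and 32.8 in CGNL1-KO libraries, and 35.4, 36.9 and 35.5 in double-KO libraries. Its fall by 0.39 in CGNL1-KO cells (SE 0.10, adjusted p = 0.0145) was lost without CGNL1-KO replicate 2 (adjusted p = 0.0590), without WT replicate 1 (adjusted p = 0.0676) and in a fit of these 2 genotypes alone (adjusted p = 0.0561). RAB21, of integrin traffic, was at 104 to 114 CPM in WT, and fell by 0.24 in CGN-KO (87.3 to 94.4 CPM, adjusted p = 0.00744) and by 0.21 in double-KO cells (90.9 to 96.2 CPM, adjusted p = 0.0129). The double-KO call was lost without WT replicate 2 or double-KO replicate 3 (adjusted p = 0.0668 and 0.0600). RAB5A, RAB5B and RAB5C, the RABs of early endosome fusion, were not called in any line, with log2 changes from −0.02 to 0.09, nor were RAB20 and RAB31, with log2 changes from −0.13 to 0.07.

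Of the 3 cilium members, RAB23, a negative regulator of Hedgehog signalling, fell. It was at 39.9 to 42.2 CPM in WT, 33.1 to 34.7 in CGN-KO and 32.8 to 37.4 in double-KO libraries, which did not overlap WT. The falls were by 0.27 (adjusted p = 0.00638) and 0.23 (adjusted p = 0.0115), the latter lost without double-KO replicate 3 (adjusted p = 0.0645). RAB28 and RAB34 were not called in any line (log2 changes from −0.05 to 0.11), nor was RAB40C (log2 changes from −0.17 to 0.05), whose SOCS box links it to ubiquitin ligases.

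Direct comparison of the KO lines in the same fit showed which of these differences were larger than the spread between libraries. CGN-KO and CGNL1-KO cells differed in 3 members (beside 5.19% of all genes). RAB17 was higher in CGN-KO by 0.59 (SE 0.13, adjusted p = 0.0152), RAB15 by 0.46 (SE 0.10, adjusted p = 0.00868) and RAB32 by 0.21 (SE 0.04, adjusted p = 0.00885). The count was 1 without CGNL1-KO replicate 3, where RAB17 (adjusted p = 0.0874) and RAB32 (adjusted p = 0.0590) were lost, and 6 without CGNL1-KO replicate 1. RAB17 was also lost without CGN-KO replicate 1 (adjusted p = 0.0690), and RAB32 in a fit of these 2 lines alone (adjusted p = 0.0694). When the replicate number entered as a block, which pairs the libraries of these 2 lines, 7 members were called. These were the same 3 and RAB11B (0.23, adjusted p = 0.0291) and RAB6B (0.29, adjusted p = 0.0272), higher in CGN-KO, and RAB21 (−0.19, adjusted p = 0.0228) and RAB24 (−0.22, adjusted p = 0.0493), lower in CGN-KO.

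Double-KO and CGN-KO cells differed in 3 members (beside 8.84% of all genes), with RAB1B higher by 0.32 (adjusted p = 0.00120), RAB32 higher by 0.15 (adjusted p = 0.0443) and RAB3D lower by 0.26 (adjusted p = 0.0115) in double-KO cells. The difference in RAB32 was lost without each of the 6 libraries taken singly (adjusted p up to 0.152), and that in RAB3D without double-KO replicate 3 (adjusted p = 0.0696), which left 1 member called. Double-KO and CGNL1-KO cells differed in 6 members (beside 14.4% of all genes). RAB1B (0.36, adjusted p = 0.000228) and RAB32 (0.37, adjusted p = 5.16e-05) were higher in double-KO cells. RAB3D (−0.36, adjusted p = 0.000737), RAB25 (−0.20, adjusted p = 0.0198), RAB27B (−0.61, adjusted p = 0.0331) and RAB37 (−0.57, adjusted p = 0.0370) were lower. RAB1B, RAB3D and RAB32 in double-KO cells were thus called against both single-KO lines and against WT. The calls of RAB3D and RAB32 against CGN-KO were those lost without single libraries. The calls of RAB25, RAB27B and RAB37 were lost without 4, 5 and 5 of the 6 libraries taken singly, RAB27B and RAB37 being kept without CGNL1-KO replicate 2 alone and RAB25 without CGNL1-KO replicate 2 or double-KO replicate 3. The count of 6 became 3 without double-KO replicate 2 and 10 without CGNL1-KO replicate 2.

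The neighbours of a member in gene order, up to 12 tested genes on each side, moved with some of these changes. RAB22A lies among genes that were higher in all 3 lines, with a median log2 change of its 24 neighbours (BCAS1 to LSM14B) of 0.35 for CGN-KO, 0.37 for CGNL1-KO and 0.34 for double-KO cells, larger than that of RAB22A. In double-KO cells the 24 neighbours of RAB1B (RBM4B to MUS81) had a median of 0.27 with 23 of 24 higher than in WT, and those of RAB4B (RABAC1 to SERTAD1) had a median of 0.26 with 21 of 24 higher. RAB1B exceeded its neighbours' median by 0.20 and RAB4B by 0.09. The part of these neighbourhoods in the 3 results was not tested.

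RAB32 and RAB27B lie on 1 chromosome with 63 tested genes between them, and in double-KO cells their neighbours had medians of 0.15 and 0.18. RAB32 exceeded the median of its neighbours by 0.53 in double-KO, 0.61 in CGN-KO and by 0.36 in CGNL1-KO cells. RAB27B fell where its neighbours were higher, and was 0.86 below their median in double-KO cells. RAB13 had neighbours with medians of 0.03, 0.01 and −0.01. RAB27A and CGNL1 lie on the same chromosome with 11 tested genes between them, and CGNL1 is the last of its 24 neighbours. Their medians were −0.08 for CGN-KO, −0.09 for CGNL1-KO and −0.17 for double-KO cells, and RAB27A was 0.46, 0.30 and 0.32 lower than these. The median neighbour of RAB11B changed by 0.15 in CGN-KO cells, beside 0.28 for RAB11B.

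**Figure D3:**
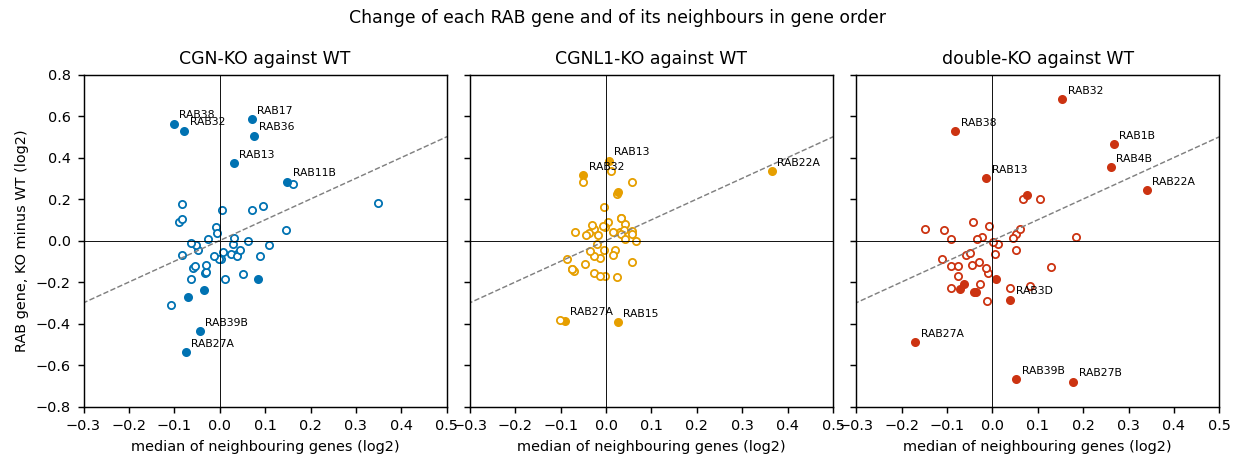
Log2 change of each of the 49 RAB genes against WT (vertical axis) and the median log2 change of its neighbouring tested genes, up to 12 on each side (horizontal axis), in CGN-KO, CGNL1-KO and double-KO cells. Filled points are calls at an adjusted p below 0.05 and the dashed line marks equal change: RAB22A lies near it at the right in CGNL1-KO and double-KO cells, RAB1B and RAB4B lie to the right in double-KO cells, and RAB32, RAB13, RAB27A and RAB27B lie away from it.

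The genes that load, switch off and read out RAB proteins were described from lists of escort and GDI proteins, GEFs, GAPs and effectors, of which 144 of 156 genes were found in the table and tested. In CGN-KO cells 27 (18.8%) were called, 12 higher and 15 lower, beside 19.0% of all genes. In CGNL1-KO cells 13 (9.03%) were called, 8 higher and 5 lower, beside 10.3%. In double-KO cells 44 (30.6%) were called, 20 higher and 24 lower, beside 26.3%. Median log2 changes of the 144 genes lay between −0.02 and 0.01. Without WT replicate 1 or without WT replicate 2 the CGNL1-KO count was 7, and without CGNL1-KO replicate 3 it was 8. By list, in the order CGN-KO, CGNL1-KO, double-KO, the 53 effectors had 11, 5 and 18 calls, the 47 GEFs had 10, 4 and 13, the 37 GAPs had 5, 4 and 12, and the 7 escort and GDI genes had 1, 0 and 1. That count of 0 is from limma, with 0 also at an unadjusted p below 0.05. In the same order, the called effectors were 5, 5 and 6 higher and 6, 0 and 12 lower. Called GEFs were 4, 3 and 7 higher and 6, 1 and 6 lower, and called GAPs were 2, 0 and 6 higher and 3, 4 and 6 lower. Of all genes tested, 11.2%, 6.81% and 14.8% were called higher and 7.87%, 3.49% and 11.5% lower.

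Among effectors UNC13D (Munc13-4), which works with RAB27 in granule release, rose in all 3 lines. It was at 1.53, 1.93 and 1.72 CPM in WT, 5.24, 5.48 and 4.66 in CGN-KO, 6.15, 6.36 and 5.19 in CGNL1-KO libraries, and 5.72, 6.31 and 6.74 in double-KO libraries, from 26 to 36 reads in a WT library and 79 to 166 in a KO library. The log2 changes were 1.17 (adjusted p = 1.83e-06), 1.34 (adjusted p = 7.48e-07) and 1.41 (adjusted p = 2.00e-07). RAB27A, as given above, fell in the same lines. SYTL1, another RAB27 effector, was at 7.90, 8.56 and 8.98 CPM in WT and 18.9, 11.7 and 14.1 in CGNL1-KO libraries, a rise by 0.72 (adjusted p = 0.00362). In CGN-KO and double-KO libraries, at 7.07 to 10.8 CPM, it overlapped WT.

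MICALL2, the effector through which RAB13 acts on junctions and actin, was at 32.2, 28.4 and 39.4 CPM in WT and 40.0 to 55.6 CPM in the KO libraries, which lay above WT. It rose by 0.59 in CGN-KO (adjusted p = 0.00213), 0.45 in CGNL1-KO (adjusted p = 0.0210) and 0.54 in double-KO cells (adjusted p = 0.00290). LRRK2, a kinase of RAB8 and RAB10 that also binds RAB29 and RAB32, fell. It was at 12.2, 10.2 and 9.56 CPM in WT, 4.91, 3.85 and 4.19 in CGN-KO, 8.998, 6.64 and 8.56 in CGNL1-KO libraries, and 5.38, 5.46 and 5.48 in double-KO libraries. LRRK2 fell by 1.13 in CGN-KO (adjusted p = 6.05e-06) and by 0.85 in double-KO cells (adjusted p = 8.69e-05), and was below WT by 0.36 in CGNL1-KO cells (adjusted p = 0.0714).

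Further effectors moved in CGN-KO or double-KO cells. SH3TC2, a RAB11 effector, was at 11.8, 11.04 and 10.9 CPM in WT and 6.15, 5.35 and 5.56 in double-KO libraries, a fall by 0.88 (adjusted p = 1.24e-05), and overlapped WT in the single-KO lines. BICD1, a RAB6 effector that recruits dynein, rose by 0.62 in CGN-KO cells (8.36 to 8.67 CPM in WT, 13.5 to 14.0 in CGN-KO, adjusted p = 7.35e-05). PLIN3, a lipid droplet protein also described as a RAB9 effector, rose by 0.61 in CGN-KO cells (15.5 to 16.3 CPM in WT, 24.5 to 25.5 in CGN-KO, adjusted p = 0.000424).

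Among regulators, DENND2C, of the DENN family of GEFs, was at 30.6 to 37.2 CPM in WT and fell by 0.55 in double-KO cells (21.8 to 24.8 CPM, adjusted p = 9.39e-05). Its fall by 0.28 in CGNL1-KO cells (26.8 to 29.3 CPM, adjusted p = 0.0351) was lost in 6 of 15 alternatives, among them the omission of each library except WT replicate 2 (adjusted p up to 0.142). DENND2D of the same family was at 8.89 to 13.0 CPM in WT and rose by 0.62 in CGNL1-KO cells (15.6 to 19.8 CPM, adjusted p = 0.00383). TRAPPC6A, a subunit of the TRAPP complexes that activate RAB1, rose by 0.56 in double-KO cells (6.48 to 7.65 CPM in WT, 10.1 to 11.4 in double-KO, adjusted p = 0.00277).

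Among GAPs, TBC1D30 fell by 0.61 in CGN-KO cells (18.3 to 20.6 CPM in WT, 11.1 to 15.4 in CGN-KO, adjusted p = 0.00114). TBC1D19, which carries the same TBC domain, fell by 0.45 in CGN-KO (26.0 to 27.8 CPM in WT, 17.4 to 21.7 in CGN-KO, adjusted p = 0.000870) and by 0.30 in CGNL1-KO cells (20.8 to 22.4 CPM, adjusted p = 0.0248). The latter was lost without each library except CGNL1-KO replicate 1 (adjusted p up to 0.107). USP6NL, a GAP of RAB5, fell by 0.28 in CGNL1-KO cells (45.9 to 52.6 CPM in WT, 38.0 to 42.4 in CGNL1-KO, adjusted p = 0.0137), which was lost without WT replicate 1 or 2, without CGNL1-KO replicate 2 and in a fit of these 2 genotypes alone (adjusted p up to 0.0614).

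**Figure D4:**
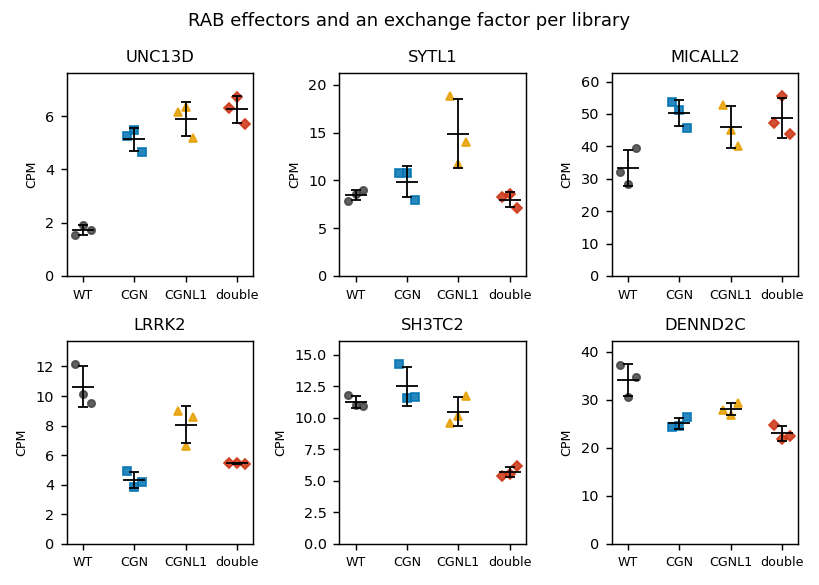
CPM of 5 RAB effectors (UNC13D, SYTL1, MICALL2, LRRK2, SH3TC2) and the exchange factor DENND2C in the 3 libraries each of WT (circles), CGN-KO (squares), CGNL1-KO (triangles) and double-KO cells (diamonds), with horizontal bars for the mean and error bars for the SD and each vertical axis starting at 0. UNC13D and MICALL2 are higher than WT in the 9 KO libraries, SYTL1 is high in CGNL1-KO, SH3TC2 is low in double-KO, and LRRK2 is lowest in CGN-KO and double-KO libraries.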

How the data were processed

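RNASeq of MDCKII cells was analysed from the table that the authors deposited. They aligned reads with STAR 2.7.0f to canFam3 and counted them per gene with HTSeq 0.9.1, per the labels and methods, from a stranded mRNA kit. The annotation release is not given in the sources used here. The deposited values are a signal in counts per 1000000 reads (CPM), scaled by edgeR library sizes, so that the columns do not each sum to 1000000. Each value was a whole multiple of the worth of 1 read (100% of values in each library, within 0.1 read), and the reads were recovered from it. The methods state a filter that some listed genes do not meet, so it was applied again: tests covered the 12650 genes that exceeded 1 CPM in 3 or more libraries. The test had been chosen for CPM whose columns sum to 1000000, and was kept for this signal.

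Genotypes were compared with limma 3.58.1 (R 4.3.3, empirical Bayes with a mean-variance trend). The values were log2(CPM + 1), and 1 model held the 4 genotypes and no block, with Benjamini-Hochberg adjustment over the genes tested. The paper used edgeR with a negative binomial model on counts. The quasi-likelihood test of edgeR 4.0.16 and DESeq2 1.42.0 were run on the recovered reads as alternatives, beside pseudocounts of 0.25 and 4, no filter, a filter of 5 CPM, CPM from library totals, fits of 2 genotypes, the replicate number as a block and each library left out. Across genes, the deviation of a CGN-KO library from its group mean correlated with that of the CGNL1-KO library of the same number (0.632, 0.475 and 0.179), so the numbers were taken to pair these lines. The pairing comes from these correlations and not from the labels. The 4-genotype fit left it out, and the block fit also grouped the WT libraries by number. Double-KO libraries 2 and 3 gave −0.233 and −0.123 with CGN-KO, −0.235 and −0.124 with CGNL1-KO, and −0.152 and 0.086 with WT. Libraries of different numbers were not compared.

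The members, their roles and the partner lists were chosen with earlier results of these data known. Genes named in the text are the members RAB8A, RAB8B, RAB10, RAB11A, RAB11B, RAB13, RAB14, RAB17, RAB25 and RAB35, up to 8 called members with the largest change per line, and the 3 largest rises and falls per line among called partners. Other members were named after their values were seen, to complete each group. Gene order came from RefSeq (UU_Cfam_GSD_1.0), which placed 11748 of 12650 tested genes (92.87%) and all 49 tested members. This build differs from that of the files, so no coordinates are given. On simulated double-KO and WT libraries (12650 genes) limma recovered 92 of 100 genes changed 2-fold and 80 of 100 changed by the square root of that, and called 9 of 12450 unchanged genes. The simulated spread followed the trend over expression level alone, with no replicate structure, and smaller changes were not simulated. These rates hold for that setting and do not carry over to the smaller RAB changes.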

Additional observations from a re-analysis of the deposited data

Results flagged for a closer look

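The following members differed between KO lines by the test of the difference itself (limma, log2 scale, first line minus second). CGN-KO minus CGNL1-KO was 0.46 for RAB15, 0.59 for RAB17 and 0.21 for RAB32. Double-KO minus CGN-KO was 0.32 for RAB1B, −0.26 for RAB3D and 0.15 for RAB32. Double-KO minus CGNL1-KO was 0.36 for RAB1B, −0.36 for RAB3D, −0.20 for RAB25, −0.61 for RAB27B, 0.37 for RAB32 and −0.57 for RAB37. The differences of RAB15, of RAB1B in both comparisons, and of RAB3D and RAB32 between double-KO and CGNL1-KO cells were called in the other analyses tried as well, including the omission of each library.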

How the results depend on the processing

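Of 33 calls of members against WT, 20 were kept without each library in turn and under the other alternatives, and 13 were lost without at least 1 library. For the 45 calls of members against WT or between KO lines, over the alternatives that bear on each, 582 values kept their direction and stayed past the threshold, 63 were no longer past it and 0 turned direction. Against WT, members not called in the 4-genotype limma fit were called 8 times with the replicate block, 4 times with 2 genotypes alone, 3 times each with DESeq2 and library totals, and up to 2 times without a single library. Called members of 49 in CGN-KO, CGNL1-KO and double-KO cells against WT (11, 6 and 16) ranged from 6 to 12, 5 to 7 and 11 to 16 without single libraries, and the F test count (20) from 14 to 22. Between lines they ranged from 1 to 6 for CGN-KO against CGNL1-KO (3), 1 to 3 for double-KO against CGN-KO (3) and 3 to 10 for double-KO against CGNL1-KO (6), and for partner genes from 18 to 26, 7 to 11 and 35 to 43 against WT (27, 13 and 44). With DESeq2, CGN-KO against CGNL1-KO gave 5, and double-KO against CGN-KO gave 5 with DESeq2, edgeR or these 2 genotypes alone. Partner genes in CGNL1-KO cells against WT numbered 7 with these 2 genotypes alone, with fewer samples to estimate the spread. With the replicate number as a block over the 9 WT, CGN-KO and CGNL1-KO libraries, CGN-KO against WT gave 17 members and 45 partner genes, and CGN-KO against CGNL1-KO gave 7 members. Shares of all genes called in that fit were not counted, so these counts are not read as particular to RAB genes. Deviations of WT libraries correlated with those of CGN-KO and CGNL1-KO by 0.373 and 0.329 for number 1, 0.318 and 0.371 for number 2, and −0.082 and 0.011 for number 3, so not every pair passed 0.1 and the numbers were not taken to pair WT with these lines, and double-KO columns entered no block as 1 has no number. The causes of these differences were not tested. Few reads limit RAB17, RAB36 and RAB38.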
